A study of Mus musculus with 8 samples.

Results

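The genes that write, copy, erase and repair DNA methylation were examined as targets of methylation themselves in splenic B and T cells of the mouse. The set held 9 genes: Dnmt1, Uhrf1, Dnmt3a, Dnmt3b, Dnmt3l, Tet1, Tet2, Tet3 and Tdg, of 21755 protein-coding genes annotated on the autosomes and the X chromosome. Each locus was the gene with 10 kb on either side (GRCm38, GENCODE), and the CpGs listed there in all 4 libraries were used. The 9 loci held 9764 CpGs listed in at least 1 library, of which 9224 (94.5%) were listed in all 4.

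The data were whole-genome oxidative bisulfite sequencing (WGoxBS) of C57BL/6J mice aged 6 to 8 weeks. Naive CD4+ CD62Lhi CD44lo CD25- T cells and resting CD43- B cells were purified from spleen, from females and from males, as cells pooled over several animals. The labels name 8 samples, 2 for each sex and cell type, but each sex and cell type has 1 table of CpG methylation, so that 4 libraries were compared, B and T cells of each sex. No group carried a mutation or a treatment. Since each sex gave 1 library per cell type, the spread behind the tests is how far B minus T differences varied between the female and the male pair. It may be technical. In the main edgeR fits of promoters, starts and tiles, this spread was shared by all regions of a kind. A region's own variation had no weight there, so a small edgeR p-value does not measure replication at that region. Sources differ on whether the levels include 5-hydroxymethylcytosine, so a level is given here as the deposited methylation level.

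DNMT1 copies methylation onto the new DNA strand after replication, and UHRF1 brings it to hemimethylated CpGs. DNMT3A and DNMT3B place methylation on unmethylated DNA, and DNMT3L, which has no catalytic activity, stimulates them, mainly in germ cells. TET1, TET2 and TET3 oxidise 5-methylcytosine, and TDG excises the more oxidised forms so that base excision repair can restore an unmodified cytosine. In lymphocytes DNMT1 sustains methylation through proliferation, while DNMT3A and TET2 are best known from blood stem cells and from leukaemia. As a rule, CpG-rich promoters are unmethylated, gene bodies are methylated, and enhancers within introns lose methylation in the cells that use them.

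A few sequences carry the contrasts described here and are printed from the plus strand of GRCm38, with each CpG in capitals. From 3 start windows the 200 bases with the most CpGs are shown, which do not hold the start itself. They are chr12:3891231-3891430 near the start of Dnmt3a-203 and Dnmt3a-205, and chr10:62865507-62865706 near that of Tet1-202, both with low levels in every library, and chr10:78041535-78041734 near that of Dnmt3l-204, with high levels although the whole window was lower. The elements shown were picked for their difference between B and T cells: chr17:56309368-56309567 in Uhrf1, chr6:83415803-83416002 in Tet3, chr10:62852057-62852256 in Tet1 and chr9:20948893-20949092 in Dnmt1. Each has the largest summed CpG difference among 200-base stretches that lie in, overlap or adjoin the 1-kb tile of that locus that differed most, and stretches further from that tile were not considered.
Dnmt3a-203 window: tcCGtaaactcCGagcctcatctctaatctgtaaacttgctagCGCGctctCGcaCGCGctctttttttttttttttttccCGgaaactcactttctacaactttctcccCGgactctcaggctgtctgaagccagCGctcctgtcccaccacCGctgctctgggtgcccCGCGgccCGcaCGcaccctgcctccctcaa
Tet1-202 window: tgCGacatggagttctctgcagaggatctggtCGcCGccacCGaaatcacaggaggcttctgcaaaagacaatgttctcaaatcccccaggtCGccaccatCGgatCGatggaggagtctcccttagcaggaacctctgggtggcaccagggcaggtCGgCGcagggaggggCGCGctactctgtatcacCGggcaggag
Dnmt3l-204 window: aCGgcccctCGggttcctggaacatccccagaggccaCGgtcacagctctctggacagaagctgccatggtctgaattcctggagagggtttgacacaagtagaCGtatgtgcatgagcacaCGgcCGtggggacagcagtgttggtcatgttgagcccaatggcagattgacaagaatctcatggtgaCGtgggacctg
Uhrf1 element: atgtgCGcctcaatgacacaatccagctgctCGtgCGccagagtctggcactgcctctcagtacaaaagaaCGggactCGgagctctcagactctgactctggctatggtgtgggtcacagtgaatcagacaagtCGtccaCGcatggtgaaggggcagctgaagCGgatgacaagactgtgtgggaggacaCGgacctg
Tet3 element: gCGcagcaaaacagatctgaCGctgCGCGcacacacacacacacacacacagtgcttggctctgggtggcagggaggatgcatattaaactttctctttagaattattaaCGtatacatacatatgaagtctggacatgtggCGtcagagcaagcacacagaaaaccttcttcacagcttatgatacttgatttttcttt
Tet1 element: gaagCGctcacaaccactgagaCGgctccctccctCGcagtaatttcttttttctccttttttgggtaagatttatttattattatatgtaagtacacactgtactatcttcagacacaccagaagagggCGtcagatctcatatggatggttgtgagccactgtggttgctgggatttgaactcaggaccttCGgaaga
Dnmt1 element: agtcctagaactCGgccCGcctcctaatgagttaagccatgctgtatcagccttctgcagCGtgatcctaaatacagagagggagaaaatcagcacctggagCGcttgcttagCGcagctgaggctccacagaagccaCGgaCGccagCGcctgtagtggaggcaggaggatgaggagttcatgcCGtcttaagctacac
Across the 15 CpGs of the Dnmt3a-203 stretch, of which 14 were listed in all libraries, levels were 1.23% in female B, 0% in female T (0 of 176 reads), 3.38% in male B and 1.21% in male T cells. The 12 CpGs near Tet1-202 were at 2.35%, 0.509%, 4.79% and 0.545% in the same order. By contrast, the 7 CpGs near Dnmt3l-204 were at 96.1%, 96.7%, 95.3% and 97.0%. The 9 CpGs of the Uhrf1 stretch were at 19.5% in female B and 27.3% in male B cells, against 83.1% in female T and 88.6% in male T cells. In the Tet3 stretch, 6 CpGs were at 81.1% and 96.2% in B cells of females and males, while T cells were at 5.80% and 0% (0 of 69 reads).

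Depth and identity of the libraries were checked first. The 4 libraries held between 280919817 and 354634149 reads over CpGs, with a median of 14 to 17 reads per autosomal CpG. CpGs with under 5 reads were absent from the tables. In the mitochondrial genome, which serves here as a background for incomplete conversion, 0.271% of female B, 0.0733% of female T, 0.727% of male B and 0.0709% of male T reads were methylated, with both B libraries above both T libraries. Promoters of all 5 B cell markers tested were called lower in B cells, at 8.36% to 28.7% in B and 37.9% to 95.2% in T libraries. All 6 T cell markers were called lower in T cells, at 0.566% to 9.87% in T and 70.2% to 94.9% in B libraries. Among 7 markers of other cell types 2 were called, Cd8a and Cd8b1, both lower in T cells. Cd8a was at 84.7% and 86.2% in B and 56.1% and 57.2% in T cells of females and males. Cd8b1 was at 88.5% and 91.6% in B and 29.2% and 29.7% in T cells. What this means for the purity of the T libraries was not tested. The remaining 5, Csf1r, Itgam, Lyz2, Ncr1 and Klrb1c, were at 47.2% to 91.5% in every library, of which Itgam and Lyz2 passed the adjusted p without reaching 20 points.

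The question put to the loci was whether B and T cells differ in methylation at the starts, along the bodies or at single elements of these genes. Regions across the whole genome were fitted together with edgeR, on methylated and unmethylated read counts with a term for sex, and p-values were adjusted within each kind of region. The call was made when the adjusted p was under 0.05 and the B minus T difference, in percentage points, was at least 20, or at least 5 for gene bodies. The starts did not differ by that rule, single elements did, and the elements were concentrated in introns of Tet3. A difference of 20 points cannot occur at starts that are under 20%, or over 80%, in every library. That held for 13 and 24 of the 44 start windows described below.

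None of the 9 promoters, taken as 1000 bases on either side of the annotated gene start, was called or passed the adjusted p alone. Among all 20501 promoters tested, 1.37% were called and 19.9% passed the adjusted p. At an unadjusted p under 0.05 edgeR gave 1 of the 9, against 30.7% of all promoters, and limma called 0. Over the 9 promoters B and T cells differed by a median of 0.446 points, and over all promoters by 0.970 points, higher in B cells in both cases. Dnmt3b, Tet2, Tdg, Dnmt3a and Uhrf1 have CpG-rich gene starts, defined by a 500-base stretch with an observed to expected CpG ratio of at least 0.75 and at least 55% G and C. Their promoters stayed between 0.232% and 17.3% in every library. The annotated gene starts of Dnmt1, Tet1, Tet3 and Dnmt3l were not CpG-rich and stayed between 73.2% and 89.6%.

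For Dnmt1, Tet1 and Tet3 the methylated gene start is the most upstream annotated start, and CpG-rich or unmethylated starts lie further in. Which transcripts the cells use was not examined. Dnmt1-202 starts at chr9:20959888, and its promoter was at 89.6% in female B, 88.6% in female T, 88.7% in male B and 88.9% in male T cells. Oocytes are known to use an upstream first exon of Dnmt1. Over the 4 levels of its promoter, the protein-coding promoters nearest to Dnmt1 were those of Vmn1r178, Col9a1 and Zfp111, at distances of 0.735, 0.745 and 0.848 points. Nearest to Tet1 were Orm1, Vmn2r80 and Oit1, at 1.11, 1.78 and 1.78 points. Acsm3, Sult1c2 and Obox5 were nearest to Tet3, at 1.31, 1.93 and 2.03 points. Dnmt3l had no promoter as near, with Adhfe1, Vmn1r83 and Pramef17 at 2.30, 2.46 and 2.83 points. Flat methylated promoters are common, and the likeness covers 4 libraries only.

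All annotated starts were then taken, joining those within 500 bases, and measured over 500 bases on either side. The 9 genes have 88 transcripts in 48 start groups, of which 44 held at least 5 CpGs and could be tested. The 4 others were those of Dnmt1-202, Dnmt3a-208, Tet1-209 and Tet2-207. None of the 44 was called, against 3.39% of 46254 windows of all genes. Without the minimum difference 11 passed the adjusted p in edgeR, all higher in B cells, against 17.1% of all windows. Of all windows, 14.2% passed with the higher level in B and 2.87% with the higher level in T cells. In limma the adjusted p was 0.0409 at chr9:20952979 in Dnmt1, and 0.0386 and 0.0472 at chr12:3807030 and chr12:3891728 in Dnmt3a. For the rest of the 11 it was 0.0576 to 0.188, so that they did not pass there. Of the 44, 13 were under 20% in all 4 libraries, 24 were over 80% in all 4, and 7 lay elsewhere. Each of the 9 CpG-rich windows was under 20%, as were 95.2% of 12165 CpG-rich windows of all genes. Among the 25 CpG-poor member windows, those with no stretch above a ratio of 0.48, 1 was under 20%, compared with 3.21% of 24857 CpG-poor windows.

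**Figure D1:**
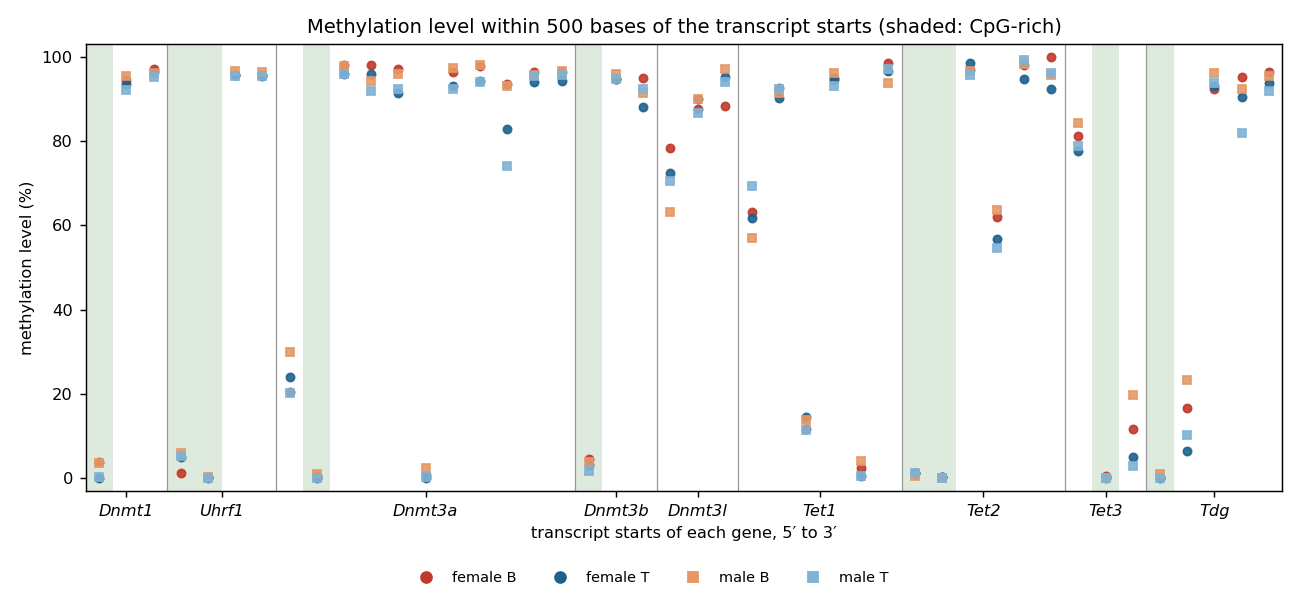
Each column is 1 of the 44 transcript-start windows of the 9 genes, in order along each gene, with the methylation level in percent of the 4 libraries as points and CpG-rich windows shaded. The 9 shaded windows sit near 0%, and the unshaded ones sit mostly above 80%, with Tet1, Tet3, Dnmt3a and Tdg holding the unshaded windows that are low.

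The maintenance genes had unmethylated somatic starts in both cell types. The CpG-rich start of Dnmt1 at chr9:20952979, shared by Dnmt1-201, Dnmt1-203, Dnmt1-205 and Dnmt1-207, was at 3.84% (95% Wilson interval 2.89 to 5.08) in female B, 0.0843% (0.0149 to 0.476) in female T, 3.58% (2.36 to 5.42) in male B and 0.317% (0.123 to 0.812) in male T cells. These intervals, like all those given here, cover counting error only. Both B libraries lay above both T libraries, by 3.51 points on average (edgeR adjusted p = 1.81e-08), and the part of the mitochondrial background in this was not tested. Uhrf1 has a pair of neighbouring CpG-rich windows. The window at chr17:56304313 was at 0.41% in female B, 0.0564% in female T, 0.23% in male B and 0.0623% in male T cells, and did not pass the test (edgeR adjusted p = 0.223). The window at chr17:56303321 was at 1.34% in female B, 5.15% in female T, 6.03% in male B and 5.30% in male T cells, with female B alone below the rest, and did not pass the test (edgeR adjusted p = 0.228).

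Of the de novo genes, Dnmt3a was unmethylated at 2 separate starts in both cell types. Its CpG-rich start at chr12:3807030, with 142 CpGs, was at 0.577% in female B and 1.06% in male B cells, and no methylated read was seen among 1534 reads of female T and 1727 reads of male T cells, which allows up to 0.196% and 0.174%. The B minus T difference was 0.816 points (edgeR adjusted p = 0.000382). The internal start at chr12:3891728, used by Dnmt3a-203 and Dnmt3a-205, lies deep inside the gene. A shorter isoform of DNMT3A is known to come from an internal promoter in germ cells and embryonic stem cells. Here the window was at 0.692% in female B, 0% in female T, 2.41% in male B and 0.288% in male T cells, a difference of 1.41 points (edgeR adjusted p = 0.00679). Mitochondrial reads, at 0.271% and 0.727% in the B and 0.0733% and 0.0709% in the T libraries, moved the same way, and their part in these differences was not tested. Upstream of the main start, the edge of the CpG-rich stretch at chr12:3806007 was intermediate, at 20.4% in female B, 24.0% in female T, 29.97% in male B and 20.3% in male T cells, and did not pass the test (edgeR adjusted p = 0.714).

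Dnmt3b had 1 CpG-rich start for 10 of its transcripts, at chr2:153649454. It was at 4.54% in female B, 3.14% in female T, 3.78% in male B and 1.79% in male T cells and did not pass the test (edgeR adjusted p = 0.192). None of the 3 windows of Dnmt3l was under 20% as a whole. Its window at chr10:78041947, which overlaps Aire, a protein-coding gene on the opposite strand, was at 78.4% in female B, 72.3% in female T, 63.2% in male B and 70.6% in male T cells. At its edge and just past it, 5 CpGs at chr10:78042249-78042471, around the start of Dnmt3l-205 at chr10:78042287, were low in every library, at 8.70%, 3.88%, 9.47% and 15.1% in the same order. The windows at chr10:78049842 and chr10:78055335 ranged from 86.6% to 90.0% and from 88.3% to 97.0%. No Dnmt3l window passed the test.

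The TET genes differed in which starts were unmethylated. Tet2 was low at both CpG-rich windows, from 0% to 0.248% at chr3:133544390 and from 0.444% to 1.27% at chr3:133545139, and neither window passed the test (edgeR adjusted p = 0.931 and 0.704). Tet3-203 has a CpG-rich start at chr6:83456392 with 0.438% in female B, 0.0744% in female T and 0% in both male libraries, where 3 reads would have been 0.337% in B and 0.31% in T cells. The other Tet3 start, at chr6:83441678 for Tet3-201, Tet3-202 and Tet3-205, was at 11.7% (9.9 to 13.7) in female B, 4.95% (3.52 to 6.9) in female T, 19.9% (16.8 to 23.3) in male B and 2.98% (2.13 to 4.16) in male T cells. Both B libraries lay above both T libraries by 11.8 points (edgeR adjusted p = 7.1e-08), while limma gave an adjusted p of 0.11. The 25 CpGs at chr6:83441536-83441735, which hold the start itself, were low in every library. They were at 0.604% in female B, 0% in female T, 1.90% in male B and 0.395% in male T cells. When only CpGs with at least 10 reads were kept, the window was called, with 20.6 points over 19 CpGs in place of 56. The annotated gene start of Tet3, for Tet3-204, was at 77.7% to 84.2% and did not pass.

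Tet1 was methylated at both of its starts with a transcript that GENCODE labels basic. Tet1-201 at chr10:62880014 ranged from 93.1% to 96.2%, and Tet1-206 at chr10:62899118 from 90.2% to 92.5%. Its low windows were at chr10:62887512, for Tet1-207 and Tet1-210, and at chr10:62865304, for Tet1-202. At chr10:62887512 the level was 11.8% in female B, 14.5% in female T, 13.8% in male B and 11.5% in male T cells (edgeR adjusted p = 0.97). This window overlaps an end of a low stretch of 97 CpGs over 1667 bases, chr10:62885900-62887566. That stretch was at 2.42% in female B, 1.92% in female T, 2.43% in male B and 1.72% in male T cells. The window of Tet1-202 was at 2.47% (1.45 to 4.17) in female B, 0.482% (0.164 to 1.41) in female T, 4.08% (2.35 to 7) in male B and 0.541% (0.184 to 1.58) in male T cells, a difference of 2.76 points (edgeR adjusted p = 0.00101, limma adjusted p = 0.0576). It was the only CpG-poor window of the 9 genes under 20% in every library. Tet1-208, at the annotated gene start, held 5 CpGs at 56.9% to 69.2%, and Tet2-208 was at 62.0% and 63.5% in B and 56.8% and 54.7% in T cells, with neither passing the test.

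Tdg was unmethylated at its CpG-rich start, chr10:82629828, at 0.246% in female B, 0.0752% in female T, 0.946% in male B and 0.0882% in male T cells (edgeR adjusted p = 0.125). In the adjoining window downstream, at chr10:82630667 for Tdg-206, the level was 16.6% (13 to 21) in female B, 6.56% (4.71 to 9.07) in female T, 23.4% (19.1 to 28.3) in male B and 10.3% (7.75 to 13.5) in male T cells. The groups did not overlap, and the difference of 11.6 points passed the test without reaching 20 points (edgeR adjusted p = 0.000114). As an unweighted mean over CpGs it was 6.77 points, and limma gave an adjusted p of 0.108. The start of Dnmt3a-214, at chr12:3897420, had the largest difference of the 44 windows, 14.8 points (edgeR adjusted p = 4.28e-07, limma adjusted p = 0.0814), from 93.4% and 93.1% in B to 82.8% and 74.1% in T cells of females and males.

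Unmethylated domains were measured outward from a start to the nearest 4 consecutive CpGs with a joint level of 50% or more. They were wider in both T libraries around some starts, narrower in both at the annotated gene start of Dnmt3a and similar around others. These widths were not tested. Around Tet3-201 the domain spanned 817 bases in female B and 767 bases in male B cells but 2179 bases in female T and 2219 bases in male T cells. At the start of Dnmt3b it spanned 1717 and 1775 bases in B and 2434 and 2540 bases in T cells of females and males. Around the Dnmt1 somatic start the values were 1824 and 2060 bases in B and 2325 and 2505 bases in T cells. The start of Tet1-202 lay in 1015 and 839 bases in B and in 1651 bases in both T libraries. At Tet2 the domain was 2308 bases in 3 libraries and 2363 bases in male B cells, and at Tdg it ranged from 1528 to 1562 bases. Around the CpG-rich start of Tet3-203 it spanned 2387 and 2254 bases in female and male B cells and 2484 bases in both T libraries. Around that of Uhrf1 it ranged from 2098 to 2308 bases. At the annotated gene start of Dnmt3a widths were 2944 bases in both B libraries and 2848 and 2722 bases in female and male T cells.

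Along the loci, methylation was compared in 652 tiles of 1 kb. Of these, 59 were called (9.05%), against 3.17% of 1530528 tiles genome-wide. The direction was uneven: 56 were called higher in B cells, against 2.36% of all tiles, and 3 were called higher in T cells, against 0.812%. Without the minimum difference 175 member tiles passed the adjusted p, against 9.35% of all tiles. By locus, 30 of 113 tiles were called in Tet3, 9 of 104 in Tet1, 8 of 124 in Dnmt3a, 5 of 79 in Tet2, 5 of 37 in Uhrf1, 1 of 71 in Dnmt1 and 1 of 51 in Dnmt3b. None of the 39 tiles of Dnmt3l or the 34 tiles of Tdg was called. Without Tet3, 29 of 539 tiles were called (5.38%). Member tiles differed by a median of 2.53 points and all tiles by 0.788 points, B cells being higher.

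**Figure D2:**
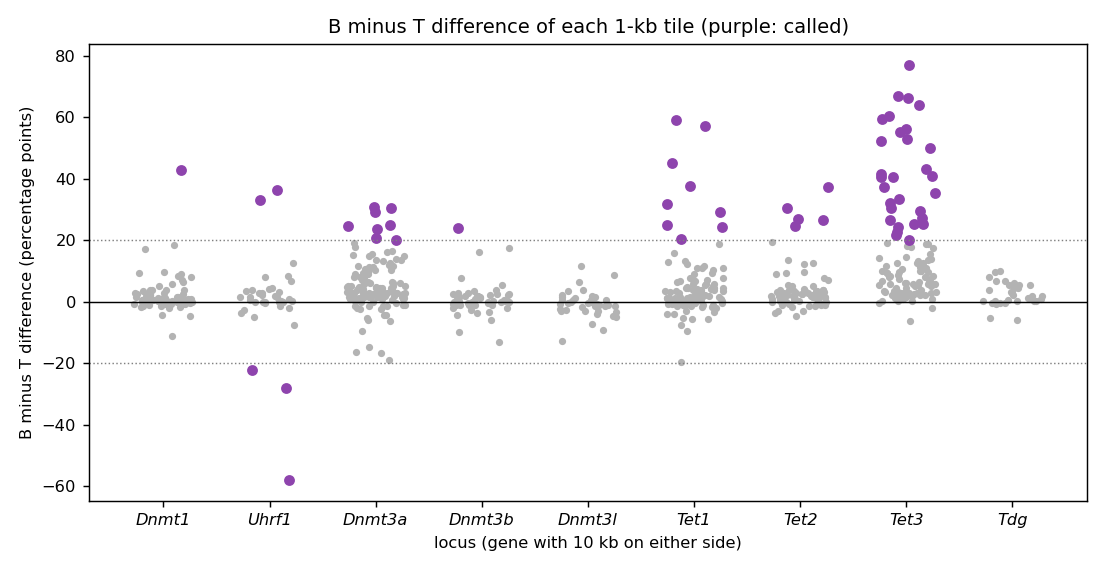
Points are the 652 tiles of 1 kb by locus, with the B minus T difference in percentage points, called tiles in purple and dotted lines at 20 points in either direction. The called tiles of Tet3 reach 77.2 points, and the 3 called tiles below 0 all lie in Uhrf1.

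The midpoint of a called tile was in an intron of the member for 55 of the 59 (93.2%), against 64.4% of all 652 member tiles, in an exon for 2, and outside the member for 2, both of which are in Kdm4b, the neighbour of Uhrf1 that encodes a histone demethylase. They held a median of 10 CpGs, and all member tiles a median of 11. Short motifs bound by lymphocyte factors were counted on both strands. TGTGGT, bound by RUNX factors, was in 67.9% of the 56 member tiles higher in B cells, in 59.2% of all member tiles and in 54.4% of all tiles genome-wide. CTTTGAA or CTTTGAT, bound by TCF and LEF factors, was in 46.4%, 30.8% and 35.2% of the same sets. AGATAA, bound by GATA factors, was in 48.2%, 35.6% and 46.2%, and GAGGAAG, bound by PU.1, was in 37.5%, 32.8% and 28.9%. Over all called tiles higher in B cells genome-wide the shares were similar, 65.7% for RUNX, 42.5% for TCF and LEF, 47.3% for GATA and 33.5% for PU.1. The letters were chosen after the tiles were known, and these shares are a description.

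Tet3 held the largest block. In intron 3 of Tet3-203, counted along the transcript, 24 of 36 tiles were called, and all 36 had higher levels in B cells, with a median difference of 31.5 points. Intron 2 held 4 called tiles of 14, and introns 4 and 5 held 1 each. In intron 3, chr6:83429001 was at 20.1 points and lost its call as an unweighted mean (18.9), after subtracting the median of all tiles (19.4), and without male B (19.0) or male T (18.2). The tile of intron 5, at chr6:83381001, was at 10.6 points as an unweighted mean in place of 21.8 and did not pass in limma (adjusted p = 0.106), nor did the tile at chr6:83451001 in intron 2 (adjusted p = 0.0658). The tile at chr6:83416001-83417000 was at 78.3% (68.3 to 85.8) in female B and 76.7% (65.8 to 84.9) in male B cells, against 0.694% (0.123 to 3.83) in female T cells and no methylated read among 126 in male T cells, which allows up to 2.38%. The difference was 77.2 points (edgeR adjusted p = 5.51e-52, limma adjusted p = 0.000269). Its neighbour at chr6:83415001-83416000 went from 65.1% and 69.8% in B cells to 2.26% in female T cells and to 0 of 201 reads in male T cells. T cells were almost without methylation over these tiles, where B cells were at 65.1% to 78.3%. B cells were themselves lower there than at chr6:83411001-83412000, where both B libraries were at 95.3%. A run of 21 CpGs under 50% in T cells covered chr6:83415149-83416608, 1460 bases, at 69.4% and 72.0% in B and 1.56% and 0% in T cells of females and males. In intron 4, chr6:83392001-83393000 was at 96.4% and 96.9% in B and 27.4% and 37.8% in T cells (edgeR adjusted p = 4.64e-65). Another of the block, chr6:83428001-83429000, was at 84.5% and 79.2% in B and at 12.2% and 17.3% in T cells of females and males. The next in size, at chr6:83418001 and chr6:83411001, differed by 60.5 and 59.4 points. Those starting at chr6:83417001, chr6:83440001, chr6:83422001, chr6:83410001 and chr6:83437001 differed by 56.1, 55.2, 53.0, 52.5 and 49.96 points. Tiles at chr6:83417001 and chr6:83418001 also lie on the gene 5430434F05Rik, and 1 of intron 2 lies on B230319C09Rik.

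**Figure D3:**
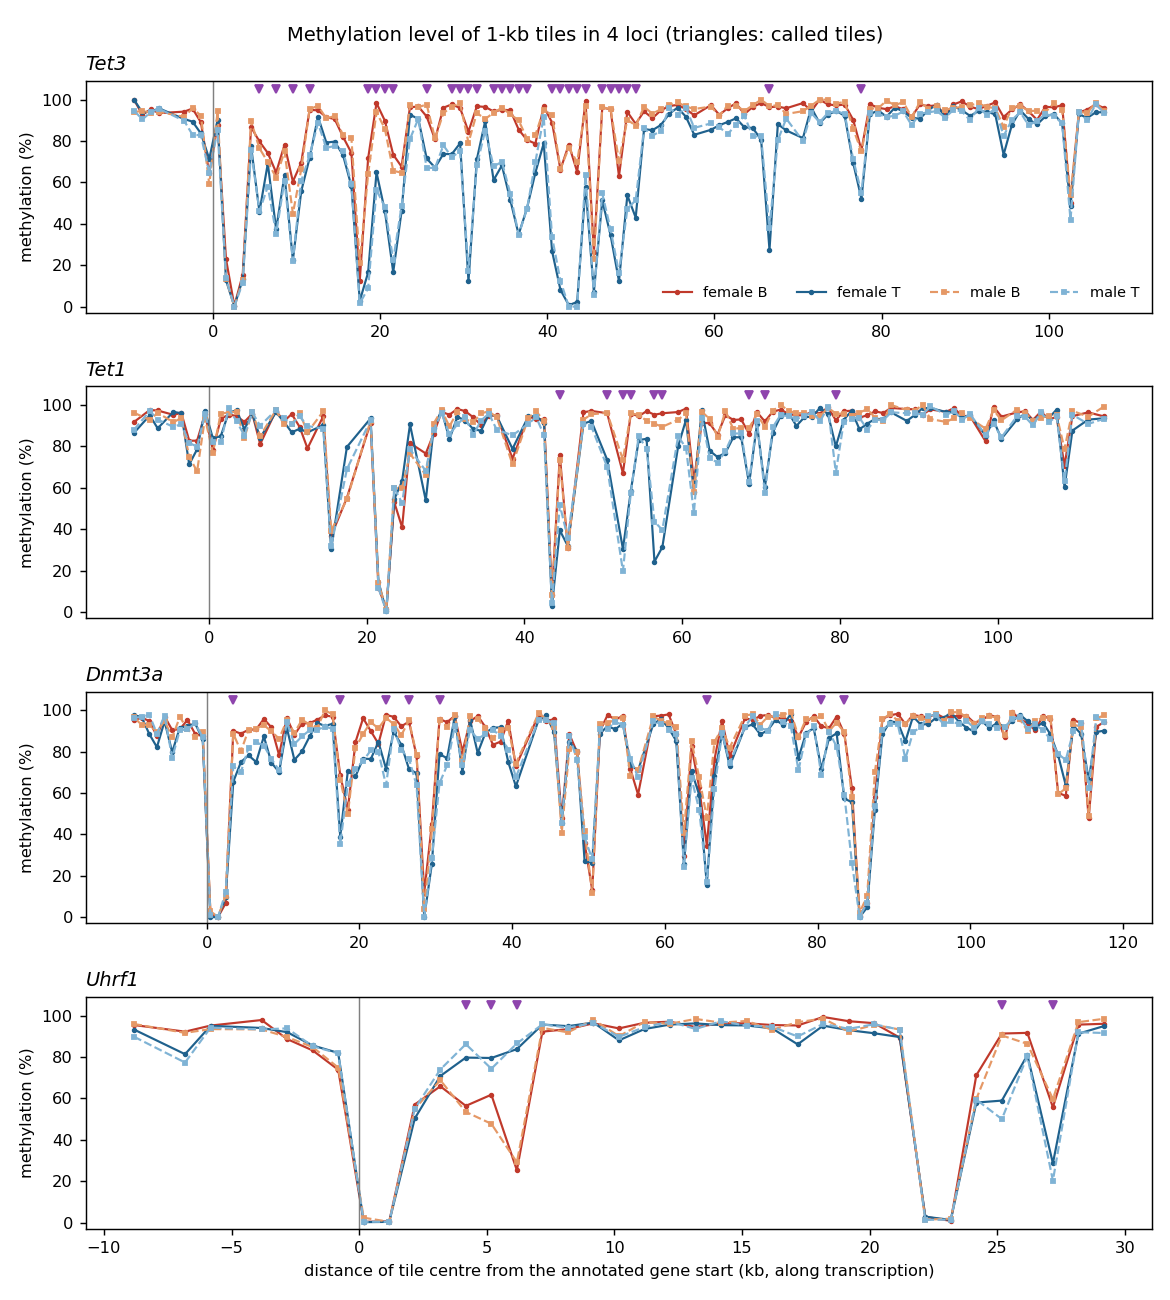
Lines give the methylation level in percent of 1-kb tiles along Tet3, Tet1, Dnmt3a and Uhrf1 for the 4 libraries, by distance in kb from the annotated gene start along transcription, with triangles over called tiles. T libraries fall below B libraries over most of the region 18.6 to 50.6 kb into Tet3, while in Uhrf1 the B libraries fall below the T libraries at 4.18 to 6.18 kb.

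Tet1 had 9 called tiles, all higher in B cells, 7 of the 21 tiles of intron 3 of Tet1-206, 1 in exon 4 and 1 in intron 6. One of those in intron 3 lies on the gene Gm48353. The tile of intron 6, at chr10:62829001, was at 20.5 points, but at 14.5 as an unweighted mean, 19.8 after subtracting the median of all tiles, and 18.9 and 14.2 without male B or male T. In intron 3, chr10:62864001 did not pass in limma (adjusted p = 0.0568). The largest, chr10:62852001-62853000, was at 95.3% (88.5 to 98.2) in female B, 24.3% (13.4 to 40.1) in female T, 90.9% (80.4 to 96.1) in male B and 43.6% (31.4 to 56.7) in male T cells, a difference of 59.1 points (edgeR adjusted p = 1.68e-14). It rests on 5 CpGs and on 37 reads in female T cells. The tile beside it, chr10:62851001-62852000, had 10 CpGs and at least 114 reads per library, and was at 96.0% and 89.5% in B and 31.3% and 39.6% in T cells of females and males (edgeR adjusted p = 4.84e-34). At chr10:62856001-62857000 both cell types were lower, with 67.1% and 73.6% in B and 30.4% and 19.7% in T cells. The tile in exon 4, chr10:62838001-62839000, was at 92.1% and 89.4% in B and 60.2% and 57.4% in T cells.

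Tet2 had 5 called tiles in introns 1 and 2 of Tet2-201. Of these, chr3:133526001 did not pass in limma (adjusted p = 0.0789), and chr3:133528001 was at 17.1 points as an unweighted mean and did not pass without female B (edgeR adjusted p = 0.052). The largest, chr3:133510001-133511000, was at 93.7% in female B, 66.7% in female T, 98.4% in male B and 50.7% in male T cells, a difference of 37.4 points (edgeR adjusted p = 1.85e-10). Its intervals in T cells were wide, 56.2 to 75.7 in females and 39.2 to 62.2 in males, at 87 and 69 reads.

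In Dnmt3a 8 tiles were called, all higher in B cells, 4 of them in intron 1 of Dnmt3a-201 and 2 in intron 6, before the internal start. Of these, 4 fell under 20 points when 1 library was left out: chr12:3809001 without female B or female T (19.5 and 16.5 points), chr12:3832001 without female T (18.2), chr12:3836001 without male T (16.7) and chr12:3871001 without male B (18.2). After subtracting the median of all tiles, chr12:3809001 and chr12:3832001 were at 19.4 and 19.9 points. With CpGs of at least 10 reads, chr12:3809001 was at 18.2 points. The tile at chr12:3889001-3890000 was at 88.8% and 89.4% in B and 57.4% and 59.3% in T cells of females and males, a difference of 30.7 points (edgeR adjusted p = 6.47e-17). In intron 1, chr12:3823001-3824000 was at 68.7% and 66.5% in B and 39.0% and 35.3% in T cells. Within it, 7 CpGs over 379 bases at chr12:3823530-3823908 were at 75.2% and 80.4% in B and 2.63% and 4.44% in T cells. These 7 CpGs were picked for low levels in T cells. Another 3 runs of CpGs, picked for low levels in B cells, were higher in T cells. The low level in 1 cell type follows from that choice, and the differences over such runs were not tested. All called tiles of Dnmt3a were higher in B cells. At chr12:3861798-3862317, over the antisense gene Dnmt3aos, 5 CpGs were at 11.4% and 14.1% in B and 53.4% and 50.6% in T cells of females and males. In intron 1, 5 CpGs at chr12:3824555-3824730 were at 16.0% and 14.5% in B and 76.3% in both T libraries. Past the end of the gene, 12 CpGs at chr12:3917692-3918233 were at 3.85% and 11.8% in B and 53.1% and 57.4% in T cells.

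Dnmt3b had 1 called tile, chr2:153651001-153652000, in intron 1 just past its CpG-rich start, at 36.3% and 39.7% in B and 13.7% and 14.3% in T cells (difference 24.0 points, edgeR adjusted p = 3.55e-08). Dnmt1 also had 1, chr9:20949001-20950000 in intron 1 of Dnmt1-202, at 88.6% (84.3 to 91.8) in female B, 45.2% (39.2 to 51.4) in female T, 88.2% (83.3 to 91.8) in male B and 45.7% (39.1 to 52.5) in male T cells. The difference was 42.9 points (edgeR adjusted p = 1.37e-26). Females and males were nearly equal within each cell type. The difference was steepest at the edge of the tile with the lower coordinates, where 7 CpGs over 127 bases at chr9:20948953-20949079 were at 87.2% and 87.7% in B and 10.2% and 18.6% in T cells.

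Uhrf1 held the 3 called tiles with less methylation in B cells, all near exon 3, while its locus as a whole was at 55.3% and 56.6% in B and 52.6% and 55.1% in T cells of females and males. The tile at chr17:56309001-56310000, whose midpoint lies in exon 3 of Uhrf1-201, was at 25.3% (21.1 to 30) in female B, 83.8% (80 to 87.1) in female T, 29.1% (23.9 to 34.9) in male B and 86.5% (82.6 to 89.7) in male T cells. The difference of 58.0 points had the opposite sign to nearly all other called tiles (edgeR adjusted p = 8.71e-51). Its 2 neighbours in intron 2 were also lower in B cells, chr17:56307001-56308000 with 56.4% and 53.5% in B and 79.7% and 86.2% in T cells, and chr17:56308001-56309000 with 61.8% and 47.7% in B and 79.5% and 74.3% in T cells. Of the 3, chr17:56308001-56309000 is the weakest (edgeR adjusted p = 0.000467), and in limma it did not pass (adjusted p = 0.0988). Without the female T or the male B library its edgeR adjusted p was 0.0709 and 0.141. A run of 11 CpGs under 50% in B cells covered 563 bases at chr17:56309399-56309961, at 9.46% and 15.4% in B and 79.2% and 84.1% in T cells. Past the end of Uhrf1, the tiles at chr17:56328001-56329000 and chr17:56330001-56331000 in Kdm4b were higher in B cells, by 36.4 and 33.2 points.

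**Figure D4:**
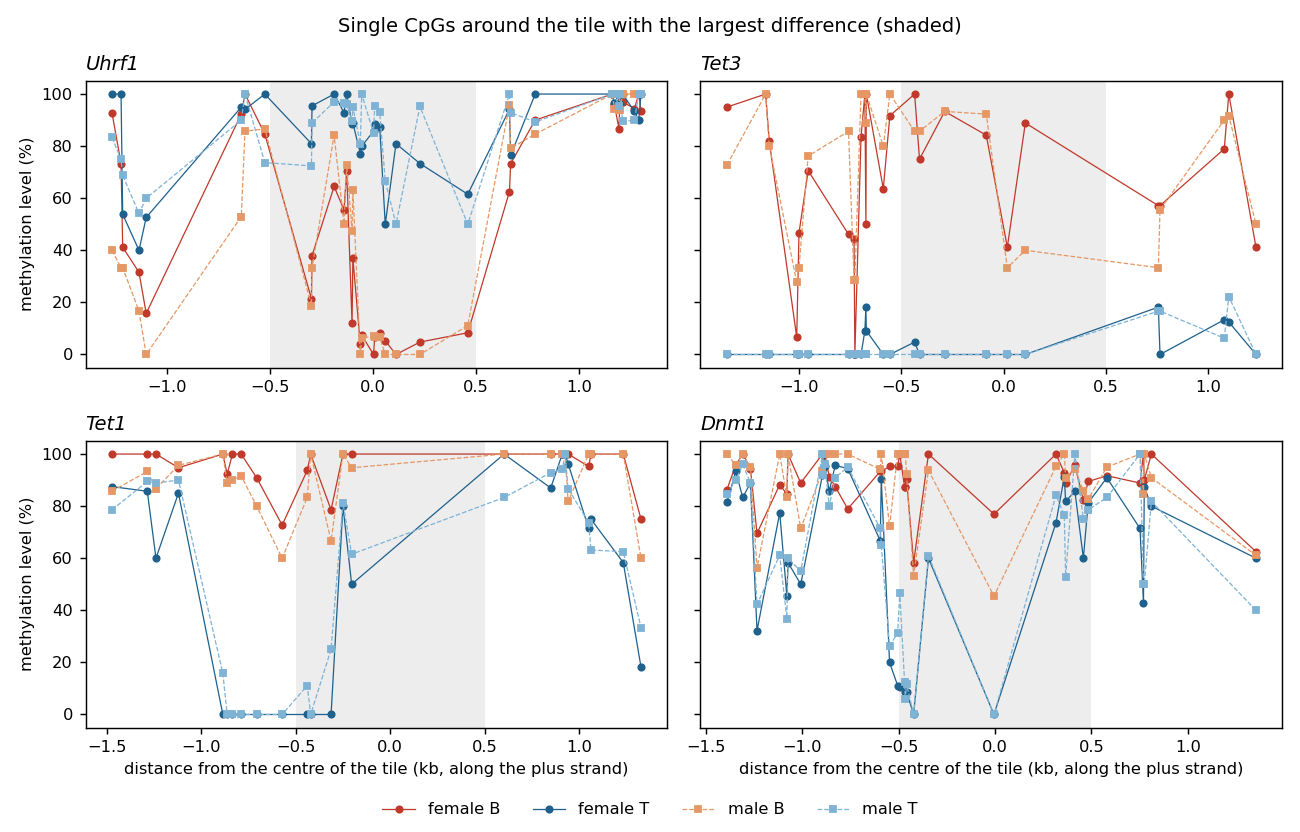
Single CpGs listed in all 4 libraries, by distance in kb from the centre of the tile with the largest difference (shaded) in Uhrf1, Tet3, Tet1 and Dnmt1, with the methylation level in percent of each library. In Uhrf1 the B libraries drop to near 0% around the centre while the T libraries stay high, and in the other 3 loci the T libraries drop.

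Counted over CpGs rather than tiles, runs of at least 4 consecutive CpGs under 50% were counted as well. T cells had 66 such runs over the 9 loci and B cells had 49. A run was taken as found in 1 cell type only when no CpG of it lay in a run of the other. By that rule 23 were found only in T cells, 13 of them in Tet3, 4 in Tet1, 3 in Dnmt3a, 2 in Tet2 and 1 in Dnmt1, while 3 were found only in B cells, in Uhrf1, Dnmt3a and Tet1. In Tet3, runs covered 15567 bases in T and 4747 bases in B cells, and in Uhrf1 they covered 4192 and 4924 bases. These counts were not tested or set against other genes, and B cells were the higher in 60.6% of all tiles.

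Gene bodies, from 1000 bases past the start to the end of the gene, were called for 4 of the 9 genes, all higher in B cells, against 16.2% of 19921 gene bodies. Without the minimum difference 8 of the 9 passed, against 43.8% of all bodies. The median difference was 3.64 points over the 9 and 1.28 points over all bodies. In Tet3 the level was 79.9% (79.4 to 80.4) in female B, 65.0% (64.3 to 65.6) in female T, 80.7% (80.2 to 81.3) in male B and 64.6% (64 to 65.2) in male T cells. The difference of 15.5 points (edgeR adjusted p = 2.26e-15) was exceeded by 2.07% of all gene bodies. Dnmt3a followed with 78.4% and 78.6% in B and 71.4% and 69.9% in T cells of females and males, a difference of 7.88 points (edgeR adjusted p = 2.07e-10). Tet1 was at 77.8% and 78.0% in B and 71.3% and 70.1% in T cells, a difference of 7.17 points (edgeR adjusted p = 5.78e-09).

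Tet2 was at 91.7% and 92.1% in B and 86.9% and 86.6% in T cells. Its difference of 5.14 points (edgeR adjusted p = 3.94e-09) lies close to the limit of 5 points, and as an unweighted mean over CpGs it was 4.35 points. Without the male B or the male T library it was 4.94 and 4.96 points, and the gene was not called. Dnmt1, Tdg and Dnmt3b were higher in B cells by less, 3.51, 3.64 and 1.75 points (edgeR adjusted p = 7.77e-06, 4.03e-06 and 0.0114), of which Dnmt1 and Dnmt3b did not pass in limma (adjusted p = 0.0795 and 0.104). Uhrf1 was lower in B cells by 2.65 points (edgeR adjusted p = 0.0412, limma adjusted p = 0.243), while 94.8% of gene bodies lay further towards B cells. Dnmt3l did not pass, with a difference of 2.26 points (edgeR adjusted p = 0.0776). When the whole gene was taken from start to end, Dnmt3b and Tdg were called as well, at 5.16 and 10.7 points. The difference of Uhrf1 was then -0.37 points (edgeR adjusted p = 0.905). The values of Dnmt3b and Tdg weight each CpG by its reads, and as unweighted means they were 0.882 and 4.17 points.

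**Figure D5:**
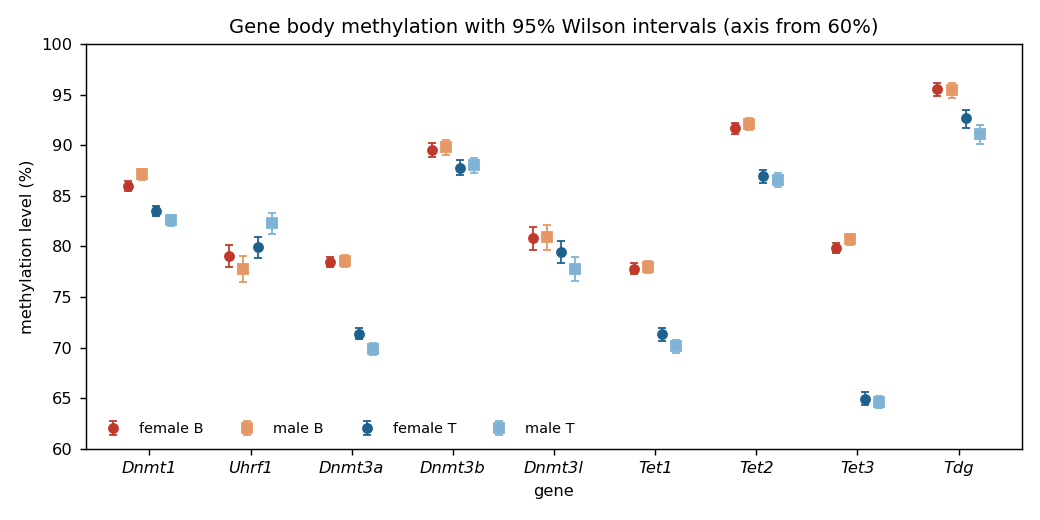
Points give the gene body methylation level in percent of each gene in the 4 libraries, with bars for the 95% Wilson interval of counting error, on an axis from 60% to 100%. The B libraries lie above the T libraries by 15.5 points in Tet3, and Uhrf1 is the gene in which they lie below.

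Over the whole gene, pooled B minus T differences ranged from -0.37 points at Uhrf1 to 15.4 points at Tet3. In every locus but Uhrf1 they were larger in size than those of either flank. In the 10 kb upstream, B minus T differences ranged from -1.39 points at Tet2 to 3.45 points at Dnmt3b. In the 10 kb downstream they ranged from -3.78 points at Dnmt3a to 7.71 points at Uhrf1, the side that holds Kdm4b. These values pool reads over CpGs and were not tested. As unweighted means, the whole-gene differences were 0.882 points for Dnmt3b and 0.504 for Dnmt3l, and no such means were taken for the flanks.

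Females and males were compared in the same fits, while a B minus T difference that varied with sex needed a separate fit. No member region passed the adjusted p for sex in edgeR or in limma. Over all features, which include the X chromosome, 0.124% of tiles, 1.9% of start windows, 3.31% of promoters and 1.31% of gene bodies passed in edgeR. In limma these shares were 0.0265%, 0.419%, 2% and 0%. At an unadjusted p under 0.05, edgeR gave 44 of 652 tiles, 7 of 44 start windows, 1 of 9 promoters and 0 of 9 gene bodies, and limma gave 37, 3, 1 and 0. Over all features, edgeR gave 5.15% of tiles, 8.39% of start windows, 10.3% of promoters and 8.11% of gene bodies, and limma gave 5.51%, 6.59%, 8.24% and 6.98%. The lowest adjusted p for sex over the tiles was 0.477. No member region passed the adjusted p for a B minus T difference that varied with sex, in a fit whose dispersion was larger (0.068 against 0.0109 for promoters), so that this says little about likeness of the sexes. Of the 652 tiles 37 had an unadjusted p under 0.05 for that contrast in edgeR and 24 in limma. Over all tiles the shares were 4.36% and 4.77%. No member start window, promoter or gene body did in edgeR, against 3.43%, 2.24% and 2.79% over all features. In limma 1 of 44 start windows did, against 3.53%, and no member promoter or gene body, against 2.43% and 4.27%.

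A further 43 genes act with the 9, as readers of methylation, partners of the enzymes, repair factors, CXXC proteins and enzymes of the methyl donor and 2-oxoglutarate pathways. All 43 promoters were tested. Only Zbtb38, 1 of the 43, was called, against 1.37% of all promoters. Zbtb38 encodes a zinc-finger protein that binds methylated DNA. Its annotated promoter was at 69.3% in female B, 93.1% in female T, 74.8% in male B and 94.9% in male T cells, 22.0 points lower in B cells (edgeR adjusted p = 1.69e-22). In fits over all chromosomes the call was lost whichever library was left out, with differences of -19.2 to -24.7 points and edgeR adjusted p of 0.0389 to 0.112. On autosomes alone it was lost only without the female B library.

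Of the 43, 9 passed the adjusted p alone, B cells being higher in 6 and T cells in 3, a share close to the 19.9% of all promoters. By list, these were 2 of 7 readers, 2 of 13 partners and recruiters, 2 of 13 genes of demethylation and repair, 1 of 3 CXXC genes and 2 of 8 genes of the methyl donor and 2-oxoglutarate pathways. One gene stands in 2 of the lists, and 32 of the 43 promoters were under 20% in every library. Kdm2b, whose CXXC protein binds unmethylated CpG islands, was at 11.6% and 10.1% in B and 2.38% and 2.19% in T cells (edgeR adjusted p = 2e-12).

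Among the gene bodies of the same genes 13 of 42 were called (31.0%), against 16.2% of all gene bodies, with the higher level in B cells for 9 and in T cells for 4. Mbd2, a reader of methylated CpGs, was at 89.3% and 90.5% in B and 68.2% and 65.7% in T cells, the largest difference at 22.96 points (edgeR adjusted p = 3.93e-16). Xrcc1, a scaffold of base excision repair, was at 78.3% and 77.7% in B and 90.6% and 88.8% in T cells, 11.6 points lower in B cells (edgeR adjusted p = 6.71e-12). Idh2, the mitochondrial isocitrate dehydrogenase that makes 2-oxoglutarate, was at 88.9% and 89.3% in B and 78.1% and 79.6% in T cells, 10.2 points higher in B cells (edgeR adjusted p = 8.06e-10). Mat2a, Usp7, Setd2, Kdm1a and Uhrf2 were called higher in B cells by 9.34, 7.45, 6.56, 6.21 and 5.67 points. Mbd4, a glycosylase of deamination products, and Gadd45a were called lower in B cells, with differences of -10.3 and -9.32 points.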

How the data were processed

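Whole-genome oxidative bisulfite sequencing of 8 labelled samples was deposited as 4 tables, 1 for each sex and cell type, and whether a table joins both samples of its group was not given in the sources used here. In the standard chemistry of the method, 5-hydroxymethylcytosine is oxidised and then read as unmethylated, while the study's methods treat the signal as both modified forms. Which applies to these tables was not settled, and a level may or may not include 5-hydroxymethylcytosine. The study's methods report far less 5-hydroxymethylcytosine than 5-methylcytosine in the WGoxBS datasets used there. Per the submitters' processing notes, reads went through Trim Galore, FastQC and Bismark 0.13.1 on mm10. Each deposited file gives, per CpG, the methylation level as a fraction made by the authors and the read count, with both strands and no CpG under 5 reads. Methylated reads were recovered as level times count.

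CpGs listed in all 4 libraries were summed over promoters, transcript-start windows, gene bodies and 1-kb tiles. Each region tested held at least 5 such CpGs and 20 reads in each library. Positions lay on CG in GRCm38 for all of 20645953 CpGs. Methylated and unmethylated counts were fitted with edgeR 4.0.16 (quasi-likelihood, terms for library, cell type and sex) over all regions of a kind, with Benjamini-Hochberg adjustment. The dispersion was shared across regions, since 4 libraries leave 1 residual degree of freedom. The fit was also run on simulated promoter counts with known shifts, and that outcome is not given here. limma 3.58.1 on logit levels was an alternative, as were other windows, tile lengths, depth minimums and weightings, no sex term, leaving out each library, and autosomes alone. R 4.3.3 and Python 3.11.15 were used.

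All members were described. Of the starts those that were CpG-rich, called or at 20% to 80% were to be named, and of the called tiles the 15 with the largest difference and the largest of each locus; further starts that passed the adjusted p, and further tiles, were named after their values were seen. Other genes were named where called, up to the 10 largest differences, and the rest after their values were seen. The members and lists were chosen with earlier results of these data known. Columns of per-sample values not used numbered 0.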

Additional observations from a re-analysis of the deposited data

How the results depend on the processing

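No called result changed direction. Among regions that did not pass, the promoters of Tet3, Dnmt3l, Mbd1 and Ung and some tiles took the other sign as unweighted means, Dnmt3l going from -1.66 to 0.28 points and Tet3 to -0.36. Without the minimum difference, 11 start windows, 175 tiles, 8 gene bodies and 9 promoters of the other methylation genes passed in place of 0, 59, 4 and 1. With CpGs of at least 10 reads 1 start window was called, that of Tet3-201. Tiles of 5 kb gave 10 calls in place of 59, but fewer were tested, 501029 genome-wide against 1530528 of 1 kb. These counts are therefore not comparable as shares. Promoters of the members gave 0 calls throughout. Tiles gave 48 to 62 calls over the other settings (54 in limma, 58 to 59 with a library left out), and gene bodies gave 3 to 6. The gene body of Tet2 was the member lost, under unweighted means, after subtracting the median of all bodies, with CpGs of at least 10 reads, and without the male B or male T library. Among the promoters of the other genes, leaving out a library gave 0 to 1 calls. All 4 such fits gave 0 over all chromosomes. On autosomes, a setting added after seeing the data, the call of Zbtb38 was lost only without the female B library. The cause of these losses was not tested. Leave-one-out fits keep 1 residual degree of freedom by dropping the sex term. The sex term pairs the B and T libraries of a sex, and without it the counts of member promoters, start windows, tiles and gene bodies called were the same. Depth limits levels near 0, where a few reads set the value.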
